A study of Mus musculus with 8 samples.

Results

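The regions described here are 596 of the 2099 positions that a deposited list gives as MYSM1 peak summits in the mouse genome (28.4%, 95% interval 26.5 to 30.4%). A member lay more than 1000 bp from every annotated transcription start site (TSS), had no unbroken run of 40 or more purines or 40 or more pyrimidines within 100 bp on either side, and was not next to another summit 2000 to 3000 bp away. Of the rest of the list, 147 summits lay within 1 kb of a TSS, 780 were distal and held such a run, and 576 were distal and belonged to such a pair. The rule used no measured signal, and position is the only value that the list gives for a summit.

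The study mapped MYSM1 by chromatin immunoprecipitation and sequencing (ChIP-seq) in 2 mouse blood progenitor lines. Ba/F3 is a pro-B cell line grown with interleukin 3, and HPC7 is a multipotent progenitor line grown with stem cell factor. Both stably expressed triple-FLAG-tagged murine MYSM1 under puromycin selection, as an added copy of the protein and not the endogenous one, and the labels describe no untagged control line. The 8 libraries were MYSM1_FLAG, Input, H2AK119ub and H3K27ac in each line, 1 library in each group, from chromatin fixed for 10 min in 1% formaldehyde and sheared to about 250 bp. The summit list does not say which of the 2 MYSM1 libraries it came from, so Ba/F3 and HPC7 cannot be told apart here. With no read counts for any library, the depth behind a summit is unknown, and the intervals and p-values below cover the counting of positions only.

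MYSM1 is a deubiquitinase that removes ubiquitin from histone H2A, a mark that Polycomb complexes place, and it is needed for normal blood formation. It has a SANT domain and a SWIRM domain, folds shared with other chromatin proteins. RE1, or repressor element 1, is the DNA element that the zinc-finger repressor REST (also called NRSF) binds to keep neuronal genes off outside neurons, and it consists of a left and a right part joined by a short gap. Tandem arrays are stretches in which a short sequence is repeated head to tail, and they are common in the mouse genome both inside repeat families and in unique DNA.

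The members were first divided by place and by copy number. Copy number is the median count, over both strands of the mm9 genome, of the 31-base words within 100 bp of a summit, and a window was called unique at a median of 1. Unique sequence inside genes held 90 members and unique sequence between genes held 146. Repeated sequence inside genes held 74 members, at a median copy number of 312.5, and repeated sequence between genes held 286, at a median of 290. Unique members made up 39.6% of all (236 of 596, 95% interval 35.6 to 43.7%). The share was 20.3% with no pair rule, 22.7% when every word had to be single copy and 26.01% with 21-base words. Of the repeated members, 12 had up to 3 copies, 25 had over 3 to 10, 62 had over 10 to 100 and 261 had more than 100.

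Reading the sequences then gave 4 kinds of content, set out in the plot of members by sequence. These kinds were defined after the sequences had been read, so their counts are descriptions and carry no test. A repeated 12-base unit, GGGAGATATAAA, lay within 100 bp of 340 members (57.0%, 52.96 to 61.1%). RE1 sites with the usual gap lay at 30 members (5.03%, 3.42 to 7.11%) and RE1 parts with a wider gap at 11. Another perfect tandem array of at least 30 bp lay at 56 members, and 159 members had none of these. The 340 unit arrays held 335 of the 360 repeated members, and the last group held 150 of the 236 unique members.

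**Figure D1:**
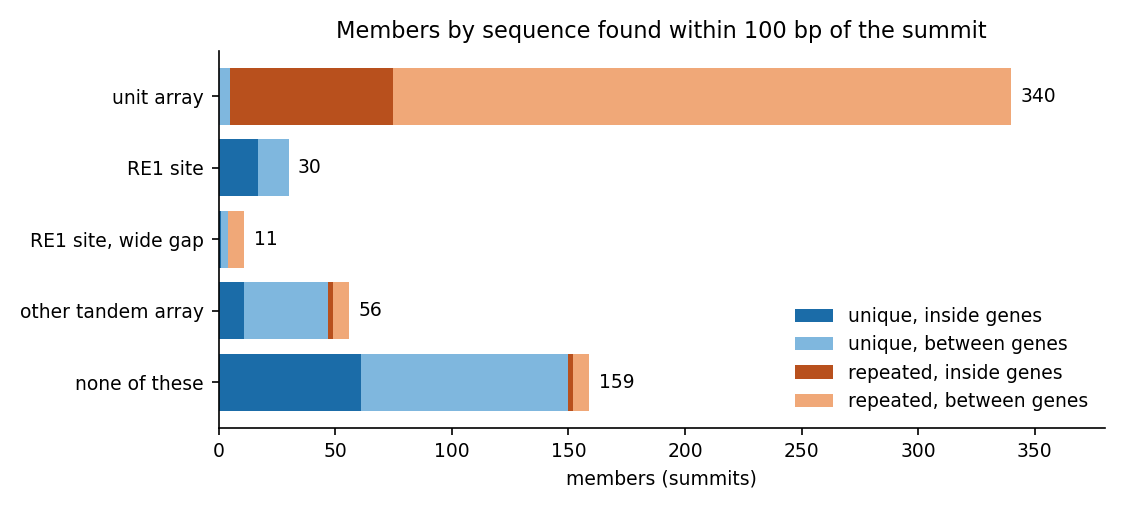
Members (horizontal axis, number of summits) by the sequence found within 100 bp of the summit (vertical axis), coloured by unique or repeated sequence and by place inside or between genes. The 340 unit array members were nearly all repeated and lay mostly between genes, whereas all 30 RE1 members were unique and 17 of them lay inside genes.

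One sequence of each kind is printed here because the kinds are read from the letters themselves. The first unit array member in genome order, between genes with a copy number of 579, held 4 whole units in capitals. Its units follow each other at 2 alternating distances on the same strand.
Unit array (mm9 chr1:18753270-18753470, plus strand): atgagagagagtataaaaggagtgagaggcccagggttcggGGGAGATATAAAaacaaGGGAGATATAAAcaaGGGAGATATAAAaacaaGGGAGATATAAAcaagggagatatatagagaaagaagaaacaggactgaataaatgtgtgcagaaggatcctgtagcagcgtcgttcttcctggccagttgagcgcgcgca

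Among other tandem arrays, 21 members lay at arrays of AGGAT, 20 of them unique, and 5 at arrays of AGGTT (the reverse complement of AACCT), 4 of them unique. The first of each is shown with the array in capitals.
AGGAT array (mm9 chr1:12495250-12495450, plus strand): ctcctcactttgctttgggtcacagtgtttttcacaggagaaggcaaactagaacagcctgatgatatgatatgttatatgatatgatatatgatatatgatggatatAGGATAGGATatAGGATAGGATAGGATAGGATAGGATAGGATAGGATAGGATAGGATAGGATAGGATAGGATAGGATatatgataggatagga
AGGTT array (mm9 chr2:56592800-56593000, minus strand): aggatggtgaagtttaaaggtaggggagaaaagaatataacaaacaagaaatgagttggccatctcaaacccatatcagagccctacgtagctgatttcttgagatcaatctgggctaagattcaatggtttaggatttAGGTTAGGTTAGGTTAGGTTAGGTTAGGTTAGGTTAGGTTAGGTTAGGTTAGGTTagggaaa

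The 4 RE1 members whose best site matched the consensus TCAGCACC, 2 free bases, GGACAGC at all 15 bases are shown with every site of at most 2 mismatches in capitals and 10 bases beyond the outer sites. Each held 2 or 3 sites, all on the strand printed.
Myo18b intron (mm9 chr5:113147815-113147892, minus strand): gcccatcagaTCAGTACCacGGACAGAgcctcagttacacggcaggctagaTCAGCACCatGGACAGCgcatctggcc
Vrk3 intron (mm9 chr7:52025556-52025642, plus strand): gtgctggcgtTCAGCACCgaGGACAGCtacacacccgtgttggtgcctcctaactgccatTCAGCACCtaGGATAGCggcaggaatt
Erich1 intron (mm9 chr8:14072656-14072796, plus strand): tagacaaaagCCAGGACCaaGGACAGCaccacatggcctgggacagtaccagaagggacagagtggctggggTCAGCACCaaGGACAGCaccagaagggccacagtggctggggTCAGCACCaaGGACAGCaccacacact
Between genes, nearest gene Kcnk9 (mm9 chr15:72399080-72399194, minus strand): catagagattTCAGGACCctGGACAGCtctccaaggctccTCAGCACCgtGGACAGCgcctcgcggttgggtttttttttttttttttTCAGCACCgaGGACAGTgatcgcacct

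Of the members with RE1 parts at a wider gap, the repeated one shown holds an exact pair 9 bp apart. The Unc5a one is shown because its exact pairs are instead 1 bp apart, and it was counted only through matches at 9 bp with 2 mismatches. Both stretches lie within 60 bp of the summit. Capitals in the Unc5a sequence mark exact CAGCA and GGACAGC, and capitals in the repeated one mark exact CAGCACC and GGACAGC.
Unc5a intron (mm9 chr13:55072347-55072467, plus strand): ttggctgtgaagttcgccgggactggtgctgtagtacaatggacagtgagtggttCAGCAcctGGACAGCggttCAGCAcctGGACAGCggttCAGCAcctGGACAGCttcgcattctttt
Repeated, between genes (mm9 chr2:23146713-23146833, minus strand): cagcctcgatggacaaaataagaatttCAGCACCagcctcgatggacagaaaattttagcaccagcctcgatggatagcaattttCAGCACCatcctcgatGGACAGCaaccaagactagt

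Of the unique members with none of these, the first in genome order with the word GAAAGGAA 60 to 160 bp before the summit is shown, with that word in capitals, from 140 bases before the summit to 60 bases after it. The word lies far to the left of the summit. Another such member, at chr1:56068634, instead held the word in an AAAGG array.
Between genes (mm9 chr1:19243411-19243611, plus strand): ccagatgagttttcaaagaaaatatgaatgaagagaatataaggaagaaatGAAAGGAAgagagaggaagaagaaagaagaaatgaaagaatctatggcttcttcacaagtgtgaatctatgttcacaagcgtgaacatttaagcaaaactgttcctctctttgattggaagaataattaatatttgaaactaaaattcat

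Members lay inside genes less often than summits at long runs (307 of 780, 39.4%) and more often than paired summits (134 of 576, 23.3%). Against both together their share was lower. Of the members, 164 of 596 (27.5%, 24.0 to 31.3%) lay in an annotated gene, against 441 of 1356 other distal summits (32.5%), an odds ratio of 0.788 (Fisher's exact test, two-sided, p = 0.0294). No conclusion is drawn from this p, since the rule formed the compared group from parts with shares above and below that of the members. Paired summits, 2000 to 3000 bp apart, can also share a gene and are then not independent. The difference did not pass the test beyond 2 kb from a TSS (odds ratio 0.833, exact p = 0.102), beyond 5 kb (0.806, p = 0.0716), or without the unit arrays in both groups (36.7% against 39.2%, 0.899, p = 0.506). Within the members, unique sequence lay in genes at a higher share, 90 of 236 (38.1%), than repeated sequence, 74 of 360 (20.6%), an odds ratio of 2.38 (Fisher's exact test, two-sided, p = 3.83e-06). Unit arrays were 335 of the 360 repeated members, with similar sequence around the unit, so these are not independent of each other. The contrast largely describes where that repeat lies, and no conclusion is drawn from this p. Without unit arrays the shares were 38.96% of 231 and 16% of 25 (Fisher's exact test, p = 0.0280).

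The unique share of the members, 39.6%, was below that of summits at long runs, 49.1% (383 of 780). It was above that of paired summits, 0.347% (2 of 576). Over all other distal summits together the share was 28.4% (385 of 1356), an odds ratio of 1.65. No test is read from this, since the rule itself placed the paired summits, nearly all repeated, in the compared group. With 51-base words the shares were 46.8% for members and 42.1% for all other distal summits (odds ratio 1.21). Another summit lay within 10 kb of 6.36% of unique and 10.3% of repeated members. No test is read from that pair of shares, since the rule itself used the spacing of summits and nearly all the paired summits it removed were repeated.

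Most members stood alone on the chromosome. The nearest summit was more than 10 kb away for 544 members, over 3000 bp and up to 10 kb away for 20, and under 2000 bp away for 32, of which 21 were unit arrays. The median distance to the nearest TSS was 33989.5 bp, and it was shorter inside genes (18857.5 bp for unique and 19432.5 bp for repeated members) than between them (37187 and 48819.5 bp). At the edges of the rule, the nearest members to a TSS lay 1030 bp from Gprin1 and 1061 bp from Gm15145, and the nearest summits left out lay 990 bp from Gm15064 and 973 bp from Gm14265. Counted only within 100 bp of the summit, the longest runs among members were 39 bases in 2 cases, and the shortest runs left out were 40 bases. A run can go on past that window. The case in Banf2 had a run of 189 bases when counted within 250 bp. The kept spacing nearest the lower limit was 1996 bp in Palm2, although closer pairs were kept too, and the pairs nearest the limits that were left out were 2031 and 2972 bp apart. By chromosome, members ranged from 0 on chromosome Y and 8 on chromosome 19 to 58 on each of chromosomes 1 and 2, all 37 on chromosome X were repeated, and 24 of the 32 on chromosome 17 were unique.

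The unit arrays accounted for almost all repeated members. A unit array was a stretch of units on 1 strand with gaps of at most 60 bp, and the mm9 genome held 3196 such copies, of which 950 had any summit and 338 had a member. Copies at members held a median of 5 units (range 1 to 17) over a median of 93 bp, and copies at paired summits held a median of 6. Copies without a summit were shorter: 1286 of 2246 held 1 unit, against 2 of the 340 members, each counted with its copy, as the plot of unit numbers shows. Neighbouring units lay 17 bp apart in 40.8% of 1546 steps and 15 bp apart in 38.9%. The summit fell within the array at 229 members, past its 3′ end at 99 and before its start at 12, with a median offset of 9.5 bp from the middle along the unit's strand.

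**Figure D2:**
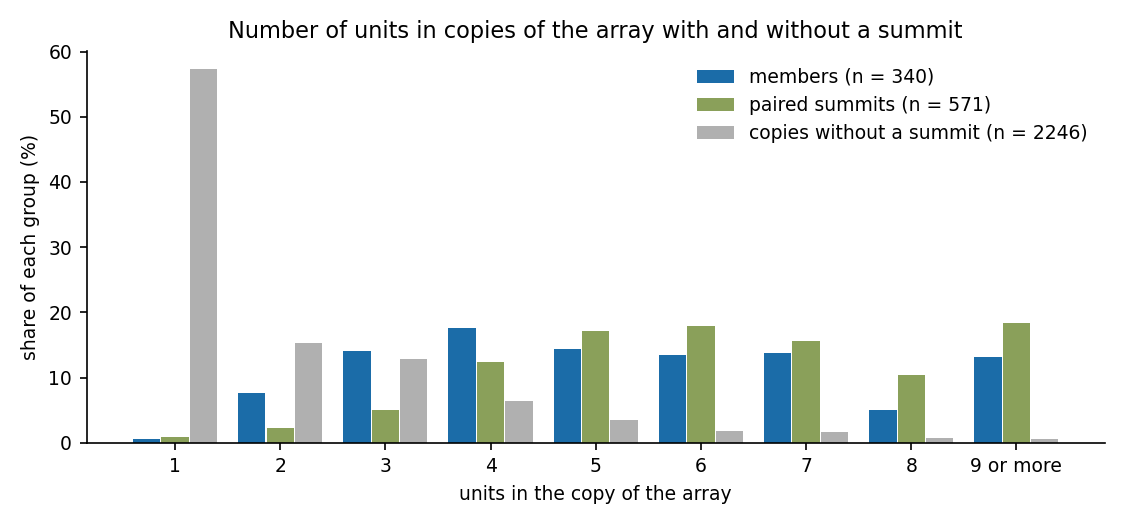
Share of each group (vertical axis, percent) by the number of units in the copy of the array (horizontal axis), for members and paired summits, each counted with its copy, and for copies without any summit. A copy of 1 unit was found at 1286 of the 2246 copies without a summit and at 2 of the 340 members.

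The rule removed summits in pairs, yet many unit array members had a partner copy at the paired distance. A copy on the same strand lay 1.9 to 3.1 kb away for 128 of 340 members (37.6%, 32.5 to 43.0%), at a median of 2497 bp. The same held for 570 of 571 paired summits, whose spacing the rule fixed. Of the 128 partner copies, 115 had no summit. In those 115 cases the copy with the summit had more units than its partner in 35 (30.4%), the same number in 76 (66.1%) and fewer in 4 (3.48%). For 211 members no copy lay at that distance on either strand. The sources used here do not say how reads with several matches were assigned, and its part in which copies had a summit was not tested. In protein-coding genes the unit ran opposite to the gene at 36 of 67 members (53.7%, 41.1 to 66.0%).

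By alignment of the sequence within 250 bp of each summit, 382 members fell into 13 families and 214, of which 205 were unique, into none. The largest family had 343 members, 340 of them with the unit, at a median identity of 86.2% over alignments of 355 bp. The second had 8 members, all with RE1 parts at a wider gap, at a median identity of 89.2%. The similarity of the unit array members thus extended past the units into the surrounding sequence.

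RE1 sites lay at 30 unique members (12.7% of 236, 8.74 to 17.6%) and at none of the 360 repeated members, which allows a share of up to 1.02%. A site was TCAGCACC and GGACAGC separated by 2 bases, on either strand, with at most 2 mismatches over the 15 bases. No site was found at any of these 236 members after moving the summit by 1000 bp to either side. Among the rest of the list a site lay at 9 of 147 promoter summits (6.12%), 0 of 780 summits at long runs and 0 of 576 paired summits. The best site had no mismatch at 4 members, 1 at 22 and 2 at 4. Its middle lay a median of 14 bp from the summit (range 0 to 61 bp), within 25 bp at 21 members and within 50 bp at 27. Over the 29 best sites whose letters were compared, the sixth and seventh bases, A and C, matched at all 29, the fifth base matched at 22 and the last base of the right part at 19.

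RE1 members mostly held more than 1 site. Within the window 23 of 30 (76.7%, 57.7 to 90.1%) held at least 2 sites and 9 held at least 3, with 4 at most, in an intron of Celf4. All sites of a member were on 1 strand in 21 of those 23. Neighbouring sites started a median of 43 bp apart (33 spacings, range 21 to 91 bp). In the sequences printed above this can be read directly: in the Erich1 intron the stretch TCAGCACCaaGGACAGC occurs 2 times with the same letters before it, next to a site with mismatches.

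The same contrast appeared when all sites of the genome were counted. Sites that started within 100 bp of each other were joined to 1 locus, and distal loci were kept. Of 7137 distal loci with a single site, 7 had a member (0.0981%, 0.0394 to 0.202%). Of 44 loci with 2 sites, 14 had one (31.8%, 18.6 to 47.6%), and of 29 loci with 3 or more, 9 had one (31.03%, 15.3 to 50.8%). Among loci whose best site had at most 1 mismatch the counts were 4 of 908, 13 of 26 and 9 of 14. Single sites with at most 1 mismatch therefore had a member in 0.441% of cases, against 50% of such loci with 2 sites. No distal RE1 locus of this kind had a summit other than a member. No REST data were among the files, and whether REST bound these loci in Ba/F3 or HPC7 was not tested.

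**Figure D3:**
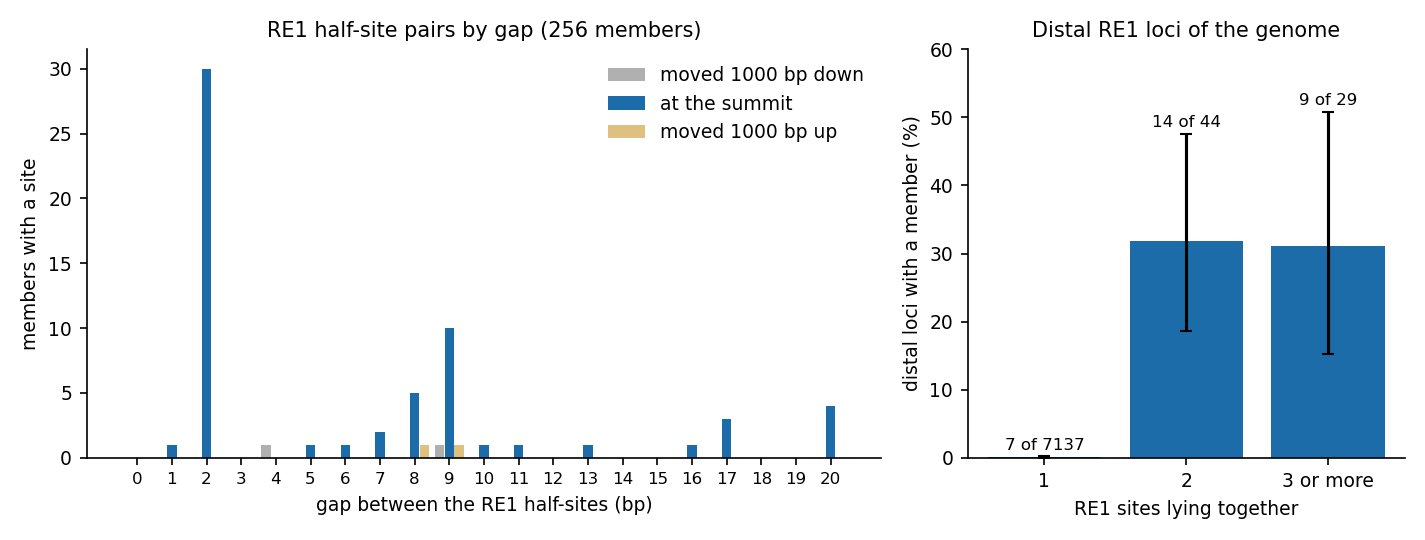
Left, members with an RE1 site of at most 2 mismatches (vertical axis, number of 256 members without a unit array) by the gap between its parts (horizontal axis, bp), at the summit and at positions moved by 1000 bp; 30 members had a gap of 2 bp and 10 a gap of 9 bp. Right, share of distal RE1 loci of the genome with a member (vertical axis, percent, with exact 95% intervals) by the number of sites in the locus; it was near 0 for 1 site (7 of 7137) and about 31% for 2 and for 3 or more.

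Of the 30 RE1 members, 17 lay inside 16 genes, 15 in introns and 2 in exons, and 13 lay between genes. The 16 genes were Garnl3, C230014O12Rik, Dlgap4, Camta1, Tas1r3, Myo18b, Vrk3, Erich1, Nsf, Cd300e, Rbfox3, Xkr6, Trappc9, Phf21b, Celf4 and Syt7. Their known roles are mixed: Rbfox3 is the splicing factor known as NeuN, Syt7 a synaptotagmin of vesicle fusion and Dlgap4 a scaffold of the postsynapse, whereas Vrk3 is a kinase family member and Myo18b a myosin. The Rbfox3 summit lay in an intron at chr11:118446304, 15080 bp from a TSS. Xkr6 held 2 RE1 members, and its relative Xkr7 had an RE1 promoter summit. Between genes, the nearest protein-coding TSS belonged to Gprin1 at 1030 bp, Vstm2l at 1113 bp and Lin28a, the RNA-binding protein that blocks let-7 maturation, at 1936 bp. Kcnk9, a potassium channel, had the nearest protein-coding TSS for 2 members, 1 between genes and 1 in an intron of Trappc9. The exonic sites lay in Tas1r3, a taste receptor, and Cd300e, a receptor of myeloid cells. The 9 promoter summits with a site, not members, lay at Xkr7, Dlgap3, Iqsec3, Gm16532, Rtbdn, Glra1, Scrt1, Npas4 and L1cam. RE1 members were richer in G and C than the rest, with a median GC content of 53.5% against 41.8% over all members.

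Parts with a gap of 7 to 9 bp were the second form. They lay at 11 members, of which 7 were repeated and between genes, 3 unique and between genes, and 1 unique in an intron of Unc5a, a netrin receptor of axon guidance. A gap of 9 bp occurred at 10 of the 256 members without a unit array and a gap of 8 bp at 5, against at most 1 each at the moved positions. Of the 11 members, 8 belonged to 1 family of similar sequence, so these counts are not of independent sites. A gap of 7 bp occurred at 2 members, fewer than the gaps of 17 bp (3) and 20 bp (4), which were not included. The Unc5a sequence printed above holds 3 copies of CAGCAcctGGACAGC in a row, in which the parts are 1 base closer than in the usual site. Its 2 matches at a gap of 9 bp had 2 mismatches each. The 7 repeated members all matched at a gap of 9 bp, 6 of them with a pair without mismatch, and a member can be counted at more than 1 gap.

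Other tandem arrays set apart 56 members, 47 of them unique. AGGAT was the most common unit with 21 members, 20 unique and none inside a gene, with 31 to 73 bp of array (median 49 bp). AAAGG followed with 11 members (30 to 38 bp) and AACCT with 5 (36 to 72 bp, 3 inside genes). These lengths count only the part within 100 bp of the summit, and an array can be longer. The length of the AAAGG arrays was capped by the rule, since AAAGG is all purine. Members were not spread over arrays in proportion to their number in the genome. Of the 43 AGGAT arrays of at least 40 bp in mm9, 24 had a summit (55.8%, 39.9 to 70.9%), 23 of them with a member, and of the 10 AACCT arrays 6 had a member (60%, 26.2 to 87.8%). AAAGG arrays also often had a summit, 665 of 2865 (23.2%), though only 29 had a member. ACAGG arrays had a summit at 10 of 69 (14.5%), and 2 had a member. By contrast, 5 of 21256 AGAT arrays (0.0235%) and 1 of 3445 ACAT arrays (0.0290%) had a summit. Among AGGAT arrays, the share with a summit was 13 of 28 at 40 to 59 bp, 9 of 13 at 60 to 79 bp and 2 of 2 at 80 to 99 bp, with intervals that overlap. St8sia1, a sialyltransferase of ganglioside synthesis, held 2 members 108 bp apart at the same AACCT array.

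For the 150 unique members with none of these sequences, 61 inside genes and 89 between, short purine words were counted. The word AGGNAGA, on either strand, lay within 100 bp of 102 of them (68%, 59.9 to 75.4%), against 35 and 33 after moving the summit by 1000 bp down and up. Within 150 bp it lay at 125 (83.3%, 76.4 to 88.9%), against 53 and 38. Within 50 bp it lay at only 37, against 18 and 14, so most matches were off the summit. With N fixed, AGGAAGA lay at 54 members (13 and 11 moved), AGGTAGA at 32 (8 and 3), AGGGAGA at 32 (7 and 8) and AGGCAGA at 13 (11 and 18). The form with C was thus no more common at the summits than beside them. RE1 members held AGGNAGA within 100 bp in 6 of 30 cases, and 6 and 9 when moved. Members with other tandem arrays held it in 16 of 56, and 14 and 11 when moved. The excess was not particular to these members, since distal summits at long runs held it in 345 of 780 (44.2%), against 177 and 180 when moved. For promoter summits the counts were 51 of 147, against 38 and 41. Unit arrays held it at 340 of 340. The unit starts with GGGAGA, which spells the word where the base before it is A.

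A second word had a direction. Read along the strand that carries it, GAAAGGAA lay 60 to 160 bp before the summit at 34 of the 150 members (22.7%, 16.2 to 30.2%), and the same distance after it at 2 (1.33%, 0.162 to 4.73%). The word was often repeated in a row, since the 20 bp bin at -120 bp alone held 96 matches. An AAAGG array spells GAAAGGAA, and these members lack a perfect array only within 100 bp of the summit. The word thus need not be separate from such arrays lying further out. At positions moved by 1000 bp the counts before the summit were 0 and 3. The split was 14 before and 0 after inside genes, and 20 before and 2 after between genes. AGGNAGA had no such direction, with 55 members before and 55 after, at peaks around -120 and 80 bp in the plot of positions. Of the other words counted in the same way, AGGAT lay before the summit at 30 members and after it at 30. TAAGG lay before it at 37, against 27 and 24 when moved, and after it at 51, against 24 and 21. At the 21 AGGAT array members GAAAGGAA lay on neither side at this distance. At the 35 members with other tandem arrays GAAAGGAA lay before the summit in 13 and after it in 1. Those 35 include AAAGG arrays, whose repeat itself spells GAAAGGAA. At 25 members GAAAGGAA before the summit occurred together with AGGNAGA within 160 bp, at 9 it occurred alone, 98 had AGGNAGA alone and 18 had neither.

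**Figure D4:**
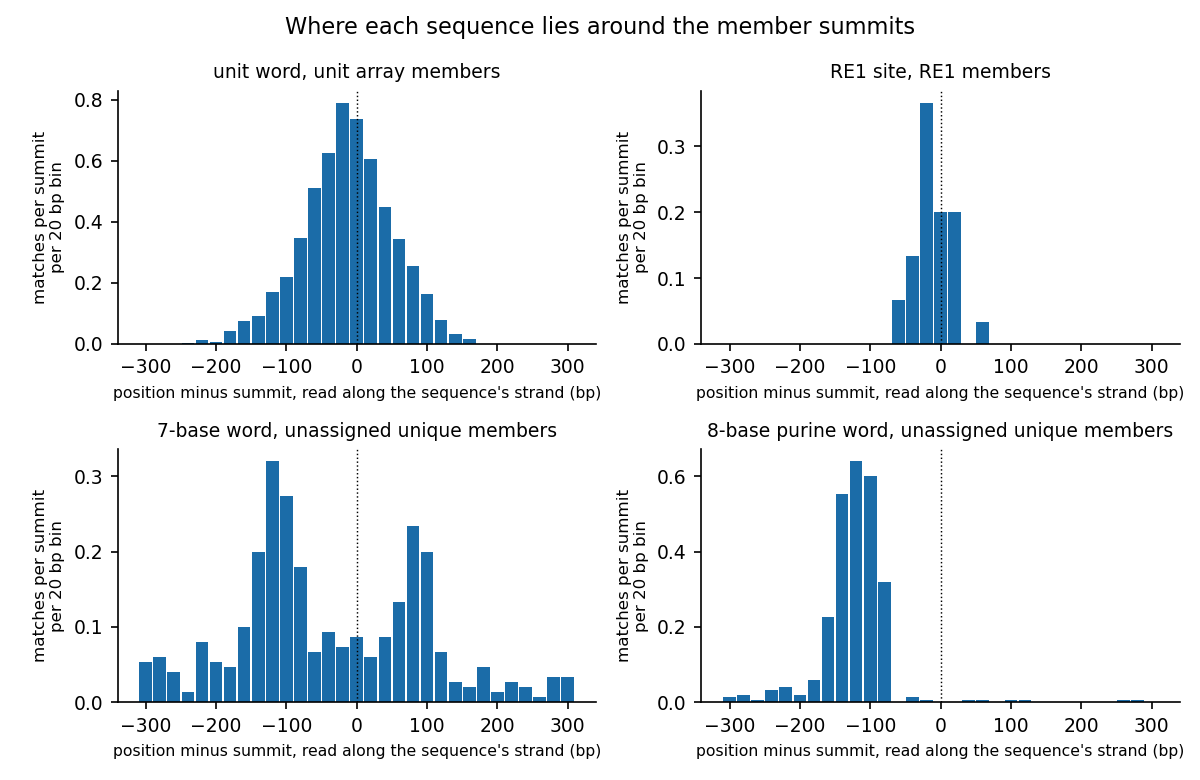
Matches per summit in 20 bp bins (vertical axis) against distance from the summit in bp, read along the strand of the sequence (horizontal axis), for the unit, the best RE1 site and both short purine words. The unit and RE1 centred within about 20 bp of the summit, the 7-base word AGGNAGA lay on both sides, and the 8-base word GAAAGGAA lay before the summit.

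Long purine runs near the summit also mostly lay before it. GAAAGGAA is all purine and can lie in these runs, so their side is not an observation separate from that of the word. Of the 150, 39 had a run of at least 25 bases within 250 bp, and read along the purine strand it lay before the summit in 34 (87.2%, 72.6 to 95.7%) and after it in 5, with its middle at a median of -136.5 bp. For runs of 40 or more the counts were 30 before and 1 after. At the moved positions, runs of 40 or more lay 4 before and 1 after, and 5 before and 8 after. The rule allowed fewer than 40 bases of a run within 100 bp of the summit, on both sides alike. It thus limited the distance of runs of 40 or more but not their side, and runs of 25 to 39 bases could lie inside that window. In all, 48 of the 596 members had a run of 40 or more within 200 bp that reached past 100 bp. These would have left the members with a wider window.

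Fixed consensus sequences of common factors were compared between unique and repeated members within 50 bp. Of 18, 12 had an adjusted p under 0.05 (66.7%; Fisher's exact test, two-sided, Benjamini-Hochberg adjusted over the 18). No test is read from these counts. Of the 360 repeated members, 335 held the unit, with similar sequence around it. They are thus not independent of each other, and the contrasts largely describe the sequence of that repeat. TATAAA was in 90.6% of repeated and 7.20% of unique members, a difference set by the unit, which contains it. AATAAA and a TOP-like pyrimidine word around CTTT were the others higher in repeated members, 35% against 16.9% and 32.5% against 16.5%. The other 9 were lower in repeated members. GATA sites, for the blood factors of that name, were in 24.2% of unique and 5.56% of repeated members. However, the unique members moved by 1000 bp held them in 18.2% and 21.6%. The same held for the RUNX, E-box, MYB, CCAAT, YY1, AP-1, CTCF and STAT words, where unique members stood within 5 percentage points of their moved positions and the repeated ones below. The ETS, PU.1, NRF1, SP1, CRE and MYC words were at 2 or fewer members in either group.

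Inside genes, 149 of 22238 protein-coding genes held a member (0.67%). None of the genes matched in the lists of stem and progenitor transcription factors (38), their receptors and signalling (28), B lineage (27), erythroid and megakaryocyte (20), myeloid and mast cell (25), p53 pathway (30), Polycomb and histone ubiquitin (31) or liver (20) held one. Of 34 neuronal adhesion and synapse genes, 4 held a member (11.8%), among them Dlg2, a postsynaptic scaffold, Magi2, a scaffold of cell junctions, and Pcdh15, a cadherin of hair cells. That list was of very long genes, with a median length of 1098 kb against 15.5 kb for all protein-coding genes, and 12% of all genes over 500 kb held a member (24 of 200). By length the share rose from 0.0114% under 10 kb (1 of 8779) through 0.278% at 10 to 50 kb, 1.15% at 50 to 100 kb and 3.27% at 100 to 500 kb. The median length of genes with a member was 154 kb.

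**Figure D5:**
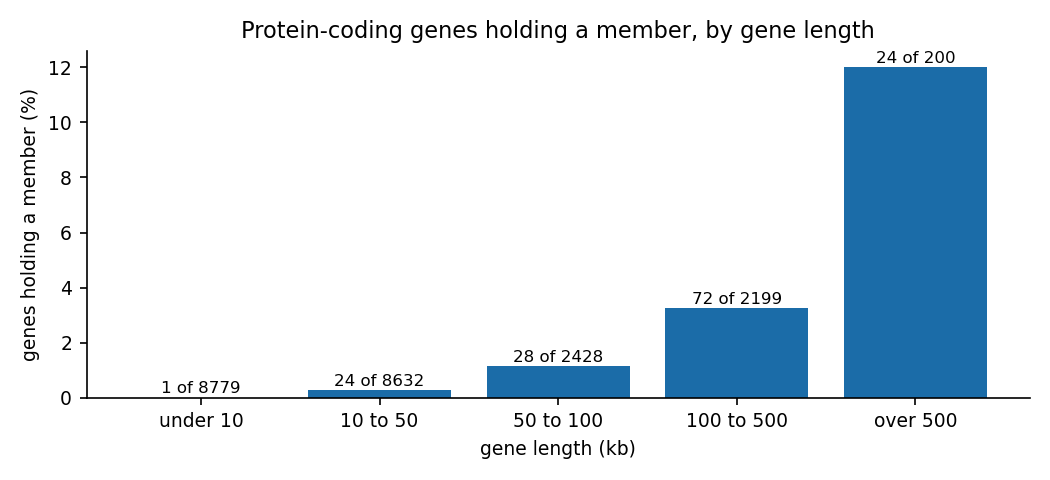
Protein-coding genes that hold a member (vertical axis, percent of genes) by gene length in kb (horizontal axis), with the number of genes above each bar. The share was 1 of 8779 under 10 kb and 24 of 200 over 500 kb.

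Genes with more than 1 member were few. Myo3b, an unconventional myosin, held 3, of which 2 were unit arrays. Pappa2, a protease that frees insulin-like growth factors, held 2 unit arrays 1449 bp apart, and Palm2 held 2 that were 1996 bp apart. Of the 164 members in genes 5 were exonic, in Rasal2, Tas1r3, Clec4d, Cd300e and Gm14683, and 7 lay in genes that do not code for protein. The unique members in protein-coding genes nearest to any TSS were in Ttll5 (1908 bp), Rasal2 (2195 bp), Timeless (2313 bp, a replication fork protein), Isoc2b (2324 bp), Zc3h8 (2383 bp), Arrb1 (3034 bp, an arrestin), Ppp1r1c (3052 bp) and Shpk (3234 bp). All 8 summits were intronic but that in Rasal2, and none held an RE1 site. For unique members between genes, besides the 3 RE1 members named above, the nearest protein-coding starts were those of Zc3h10 (1216 bp), Cdsn (2466 bp) and Prrt3 (2951 bp).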

How the data were processed

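The labels give 8 ChIP-seq libraries in 8 groups of 1. Per the submitters' processing notes, Bowtie 1.0.0 and MACS 1.4.1 were used with mm9, with their roles, thresholds, handling of reads with several matches, use of input and pooling not given in the sources used here. The authors deposited 1 list of 2099 summit positions, whose values are genome positions with no score, and start and end were equal on every line. Positions were taken as counted from 1. The NCBIM37 (mm9) genome and GENCODE M1 annotation gave TSSs of all transcripts, gene bodies and sequence. Word counts, matches and alignments were made with Python 3.11.15, NumPy 2.4.6, pandas 2.3.3, numba 0.67.0, pysam 0.24.0, samtools 1.23.1 and BLAST 2.17.0; tests and exact Clopper-Pearson 95% intervals with SciPy 1.17.1. Unit copies were joined over at most 60 bp, and perfect arrays counted from 30 bp at a summit and 40 bp in the genome. Genes were named where they were on a gene list, were nearest to a TSS (8 in genes, 6 between), held an exonic member or more than 1 member, or lay at a threshold; RE1 genes and the 4 RE1 loci printed were chosen after their sequences were seen. The members, lists and classes were chosen with earlier results of these data known. The scripts were tested on simulated data. Alternatives were other TSS distances, run lengths and windows, spacings, TSS sets, word lengths and motif windows. Some items withheld for evaluation are not reported here.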

Additional observations from a re-analysis of the deposited data

How the results depend on the processing

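Of the alternatives tried, 51 values kept their direction and side of the threshold, or moved by less than the interval of the main value. The unique share, 39.6%, was 54.7% with runs searched within 50 bp and 35.6% within 200 bp, 20.3% with no pair rule, 26.01% with 21-base and 46.8% with 51-base words, and 22.7% when every word had to be single copy. The members numbered 1169 with no pair rule. Leaving out unit arrays, chosen after seeing the data, left 256 members, 90.2% of them unique and 36.7% inside genes. The test of gene bodies against other distal summits was not passed beyond 2 kb (odds ratio 0.833) or beyond 5 kb (0.806). Without unit arrays it was not passed either (0.899), and the direction stayed in each. For unique sequence, where no test is read, the direction stayed with 51-base words (odds ratio 1.21). The cause was not tested. Unique members with an RE1 site numbered 26 to 33 with 1 or 3 mismatches and 29 or 31 in windows of 50 or 250 bp, also chosen after seeing the data. Consensus words with an adjusted p under 0.05, where no test is read either, numbered 11 and 9 with windows of 25 and 100 bp. No paired analysis was possible because each group has 1 library and 1 list was deposited. Depth, enrichment over input and the line of origin of a summit are unknown, so a missing summit sets no limit on binding.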

Other observations

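The names in the summit list carry a running number that does not follow genome order. Over the 2099 summits it rose with distance from the nearest protein-coding TSS (Spearman's rho 0.906), and over the 596 members likewise (0.880). With TSSs of any transcript the values were 0.704 and 0.652. The number was used in no comparison, and these correlations are across positions of 1 list and carry no test.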
